A study of Mus musculus with 6 samples.

Results

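The Nr4a family of orphan nuclear receptors was examined in cultured follicular B cells. Its 3 members, Nr4a1, Nr4a2 and Nr4a3, were taken by gene symbol from a table of 12431 genes, and all 3 passed the filter on low counts together with the rest of the 10514 genes tested. WT cells came from adult male Gpr174+/Y mice and GPR174-deficient (KO) cells from Gpr174-/Y males, in which an in-frame tdTomato reporter replaces the only coding exon of this X-linked gene in every cell of the animal. Both groups were splenic follicular B cells sorted as CD21/35- CD23+ and held for 1 h in complete RPMI with no stimulus added, with 3 libraries per genotype. Every library is from 1 h of culture, so change over time was not measured. The comparison asks how early transcripts differ when B cells cannot signal through GPR174, a lysophosphatidylserine receptor coupled to the cAMP-raising G protein Gαs.

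NR4A proteins bind DNA as monomers at an extended half-site, as homodimers, or as partners of the retinoid X receptor. Their ligand pocket is closed by bulky side chains, so their activity is thought to follow how much protein a cell makes. In lymphocytes the genes are switched on within minutes by antigen receptor signals through calcium and by cAMP through CREB. Nr4a1 encodes NUR77, widely used as a reporter of antigen receptor signaling, and NR4A proteins restrain B cells that receive antigen without costimulation.

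Because CREB acts at promoters, the DNA before each start site is shown first. The sequences are RefSeq windows of GRCm38.p6, written 5′ to 3′ on the strand of the gene, and the capitals mark each CRE half-site, TGACG, which reads CGTCA where it lies on the other strand. The windows are chr15:101266596-101266845 on the plus strand for Nr4a1, chr2:57124004-57124253 on the minus strand for Nr4a2 and chr4:48045055-48045304 on the plus strand for Nr4a3. Of the Nr4a3 window only chr4:48045055-48045152 is printed, because GENCODE places the remainder in a first exon of the gene.
Nr4a1: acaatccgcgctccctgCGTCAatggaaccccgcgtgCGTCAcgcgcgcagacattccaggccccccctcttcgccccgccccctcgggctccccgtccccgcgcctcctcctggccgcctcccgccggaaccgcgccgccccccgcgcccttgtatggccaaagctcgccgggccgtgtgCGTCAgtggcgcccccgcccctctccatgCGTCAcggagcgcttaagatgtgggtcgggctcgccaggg
Nr4a2: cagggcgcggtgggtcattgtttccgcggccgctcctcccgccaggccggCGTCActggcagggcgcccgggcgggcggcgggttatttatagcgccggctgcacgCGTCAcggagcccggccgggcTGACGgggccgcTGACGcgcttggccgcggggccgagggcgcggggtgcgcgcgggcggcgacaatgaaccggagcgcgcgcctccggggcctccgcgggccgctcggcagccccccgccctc
Nr4a3: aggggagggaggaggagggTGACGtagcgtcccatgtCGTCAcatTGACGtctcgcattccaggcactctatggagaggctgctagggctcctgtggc

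Each of the 3 windows held 4 half-sites within the 250 bases before the start. Of the 32851 promoter windows of this length in RefSeq, 17.8% held at least 1 half-site and 0.137% held at least 4. Among 40 other nuclear receptor genes with a window, 10 held a half-site and 1 held as many as 3 (Nr2e1). The family's windows were rich in G and C, at 74.4% for Nr4a1, 80.0% for Nr4a2 and 63.6% for Nr4a3, and the share of windows of the same base composition with 4 half-sites was not computed. In Nr4a1 all 4 half-sites lay on the other strand, beginning 233, 213, 69 and 40 bases before the start. In Nr4a2 they began 200 and 144 bases before the start on the other strand, and 123 and 111 bases before it on the strand of the gene. In Nr4a3 they began 231, 205 and 147 bases before the start on the strand of the gene and 213 bases before it on the other strand, and the one at 147 lies in the stretch that is not printed.

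**Figure D1:**
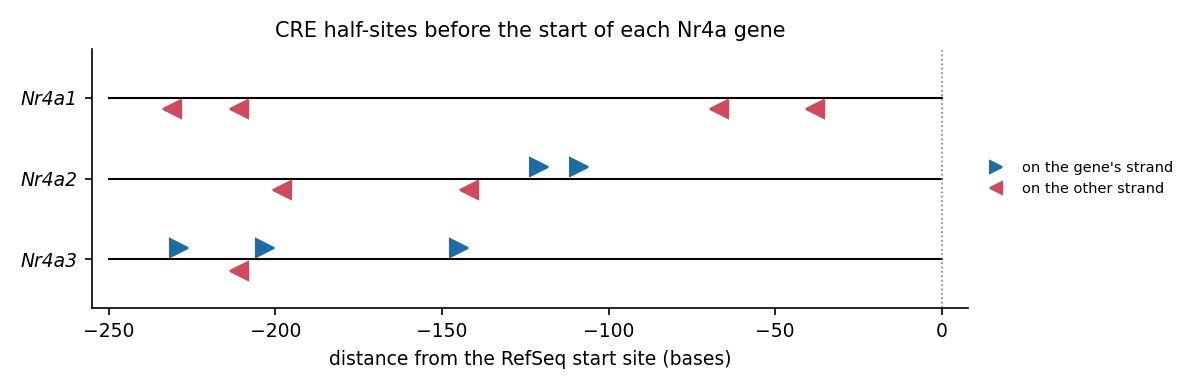
Position of each CRE half-site in the 250 bases before the RefSeq start of Nr4a1, Nr4a2 and Nr4a3, with distance from the start in bases on the x axis and a triangle for each match, above the line for the strand of the gene and below it for the other strand. All 3 genes hold 4 matches, and those of Nr4a3 all lie between 231 and 147 bases before the start.

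Other motifs were searched on both strands of the same windows. The full CRE, TGACGTCA, which would count as 2 overlapping half-sites, had 0 matches in each of the 3 windows and was present in 1.55% of all windows. The NR4A response element AAAGGTCA had 0 matches in the family and was present in 1.34% of windows, and the CArG box bound by serum response factor had 0 matches and was present in 1.47%. A match is a string of letters only, and the 3′-end reads do not show which start site these cells used. GENCODE places further starts of Nr4a1 upstream of its window, and a second start of Nr4a2 downstream of its own.

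The members differ in size but not in plan. Nr4a1 (mm10, chromosome 15, 101254269 to 101274795, plus strand), Nr4a2 (chromosome 2, 57106830 to 57124003, minus strand) and Nr4a3 (chromosome 4, 48045153 to 48086447, plus strand) each have a main coding transcript of 8 exons. Coding lengths are close, at 1803, 1794 and 1881 bases, whereas the 3′ untranslated regions, where 3′-end reads fall, are 543, 1326 and 3093 bases long. No annotated gene overlaps any of the 3 on either strand. The members shared 0 stretches of 50 bases, the read length, with each other. With other genes, Nr4a1 and Nr4a2 shared 0 stretches and Nr4a3 shared 9 of its 5986, so reads of 1 member would not be expected to be counted for another.

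Libraries held 8452460 to 10944833 counts. WT replicate 2 stood apart, with a score of 32.5 on the first principal component of the 500 most variable genes against -8.18 to -4.33 in the other 5 libraries. It also had the highest summed levels of T cell markers (68.6 CPM against 37.1 to 56.7), myeloid markers (205 against 160 to 177) and NK markers (17.5 against 7.55 to 10.2). The myeloid and NK sums were also higher in WT, whereas the T cell sums overlapped between genotypes. T cell markers summed to 48.7 to 68.6 CPM in WT and 37.1 to 56.7 in KO, myeloid markers to 176 to 205 and 160 to 174, and NK markers to 9.54 to 17.5 and 7.55 to 7.80, so that the myeloid and NK sums did not overlap between genotypes. Of 11 tested myeloid markers, 10 had higher levels in WT (median log2 fold change 0.53). Single genes made up much of these sums. Spi1 was at 94.9 and 100 CPM in WT and KO within the myeloid list, and Lck at 42.5 and 37.4 CPM within the T cell list. Cd3d was at 3.27 and 3.02 CPM and Cd3e at 0.88 and 0.57 CPM. The follicular B markers summed to 6081 to 6400 CPM in WT and 6668 to 6987 in KO, and those of marginal zone B cells to 517 to 535 and 522 to 576. Plasma cell markers, which include Irf4, summed to 449 to 529 CPM in WT and 560 to 623 in KO, and erythroid markers to 2679 to 4714 and 3010 to 7569. The follicular B and plasma cell sums did not overlap between genotypes either, and were lower in WT. Among single genes tested, 16.7% had no overlap in either direction. The genes called among all these markers were Cd79b and Irf4, lower in WT, and Cebpb, higher in WT, whose call was lost in all 6 fits that left out a library. Gpr174 itself was still counted in KO cells, at 99.8 to 100.2 CPM against 121 to 136 CPM in WT, 78.3% of the WT mean (log2 fold change 0.35, edgeR adjusted p = 0.0359). Although this call has the direction of the labels, the reads may lie outside the replaced coding exon, and the gene was taken as no check of them.

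Nr4a1 and Nr4a2 were both strongly expressed in WT cells and were far lower in KO cells, whereas Nr4a3 was expressed at a low level in both. The KO mean was 31.0% of the WT mean for Nr4a1, 26.5% for Nr4a2 and 57.6% for Nr4a3. Under edgeR's quasi-likelihood test, 2 of the 3 members were called higher in WT, beside 1.3% of all genes tested. WT values lay wholly above KO values for the same 2 members, beside 8.43% of all genes. Over all genes, 16.7% had no overlap between genotypes in either direction. These are bulk libraries, in which a smaller share of expressing cells and less RNA per cell cannot be told apart.

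**Figure D2:**
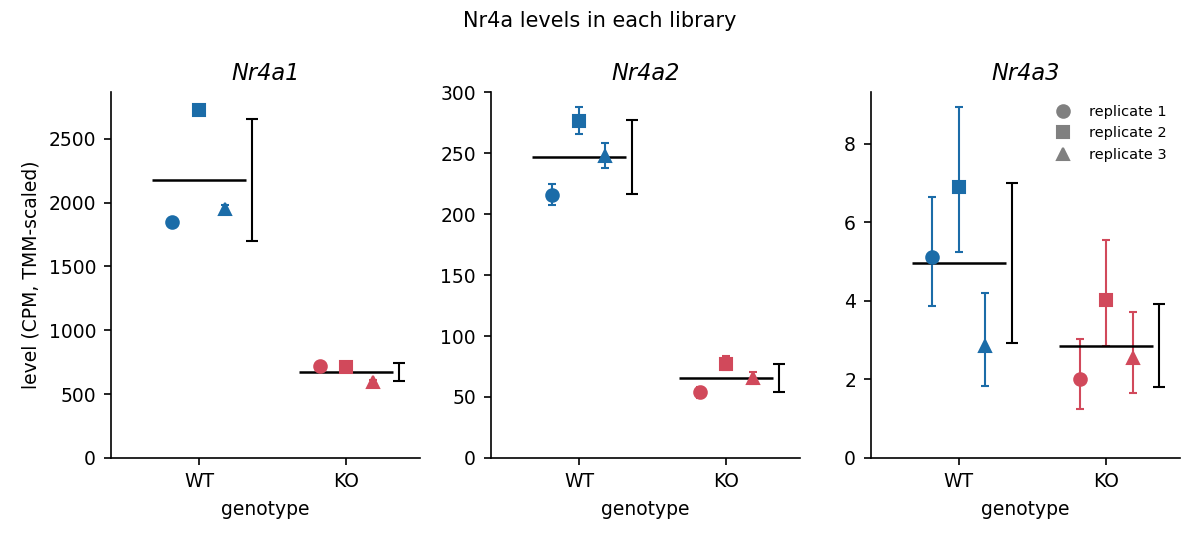
Levels of Nr4a1, Nr4a2 and Nr4a3 in each of the 3 WT and 3 KO libraries, in CPM on a linear y axis that starts at 0 and differs between panels, with bars on points for the exact 95% counting interval and, beside them, the mean (line) and SD (bracket) of each genotype. WT and KO do not overlap for Nr4a1 and Nr4a2, WT replicate 2 (square) is the highest WT library in every panel, and for Nr4a3 WT replicate 3 (2.84 CPM) lies below KO replicate 2 (4.03 CPM).

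Nr4a1 was measured at 1846, 2723 and 1954 CPM in WT replicates 1 to 3. The KO replicates held 723, 709 and 592 CPM. The lowest WT library was 2.55 times the highest KO library, so the genotypes did not overlap, and WT replicate 2 stood above the other WT libraries. WT libraries averaged 2174 CPM ± 478 and KO libraries 674.6 CPM ± 71.8 (SD, n = 3 each), a fold change of 3.22 (95% interval 2.32 to 4.48). On the log2 scale this was 1.69 ± 0.19 (SE, edgeR adjusted p = 0.0198). In WT cells Nr4a1 was the 24th most abundant of all tested genes, and in KO cells it ranked 182. The difference of 1500 CPM between the genotypes was the 4th largest of any gene in absolute terms.

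Although Nr4a1 had the largest difference in level of the family, its adjusted p ranked only 137 of the 191 genes called. Its WT libraries had a coefficient of variation of 22.0%, beside a median of 13.0% over all genes, and its KO libraries 10.6%, beside 10.8%. In the robust edgeR fit, which lets genes of unusual spread borrow less information from other genes, Nr4a1 kept 1.03 prior degrees of freedom against a median of 22.6, and 23 of the 10514 genes had fewer. With WT replicate 2 left out, the WT mean was 1900 CPM (n = 2), KO cells held 35.5% of it, and the log2 fold change became 1.49 ± 0.07 (SE, edgeR adjusted p = 1.14e-13). Omitting KO replicate 1 or KO replicate 2 ended the edgeR call (adjusted p = 0.0634 and 0.134), although the log2 fold changes in those fits were 1.74 and 1.72. The part of T cell, myeloid and NK transcripts in the values of the family, and in those of WT replicate 2, was not tested.

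Nr4a2, which encodes NURR1, a factor best known from dopamine neurons, was measured at 216, 277 and 248 CPM in the WT replicates. The KO replicates held 53.7, 77.3 and 65.6 CPM. The genotypes did not overlap, the lowest WT library being 2.80 times the highest KO library. Means were 247 CPM ± 30.4 and 65.53 CPM ± 11.8 (SD, n = 3 each), a fold change of 3.77 (95% interval 3.18 to 4.48). On the log2 scale the difference was 1.92 ± 0.12 (SE, edgeR adjusted p = 4.49e-09). This was the 5th largest log2 fold change among the 191 genes called, ahead of Nr4a1 at rank 9, and the 8th smallest adjusted p. In level, Nr4a2 ranked 3032 in KO cells and 778 in WT cells. It was called in each of the 6 fits that left out a library, with log2 fold changes of 1.79 to 2.05 and edgeR adjusted p no higher than 3.87e-06.

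Nr4a3, which encodes NOR1, rested on few reads. The WT libraries held 56, 58 and 25 counts and the KO libraries 22, 37 and 26. These correspond to 5.12 CPM (exact 95% interval 3.87 to 6.65), 6.92 (5.25 to 8.94) and 2.84 (1.84 to 4.19) in WT, and to 2.00 (1.25 to 3.03), 4.03 (2.84 to 5.56) and 2.53 (1.66 to 3.71) in KO, the intervals covering counting error only. The genotypes overlapped, since WT replicate 3 was below KO replicate 2. Means were 4.96 CPM ± 2.04 (SD, n = 3) and 2.86 CPM ± 1.05 (SD, n = 3). The log2 fold change of 0.80 had a 95% interval of -0.14 to 1.74 and did not pass the test (SE 0.46, edgeR adjusted p = 0.521). That interval holds both no difference and the log2 fold change of Nr4a1. It stops short of the log2 fold change of Nr4a2 (1.92) but overlaps that gene's own 95% interval of 1.67 to 2.16. DESeq2 gave no adjusted p to Nr4a3, and leaving out a library moved its log2 fold change between 0.49 and 1.12.

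The order of levels was Nr4a1, Nr4a2 and Nr4a3 in each of the 6 libraries. Neighbors in that order were far apart, as the lowest Nr4a1 library (592 CPM) stood above the highest Nr4a2 library (277 CPM), and the lowest Nr4a2 library (53.7 CPM) above the highest Nr4a3 library (6.92 CPM). In WT cells mean Nr4a1 was 8.80 times Nr4a2 in CPM, and Nr4a2 was 49.8 times Nr4a3. In KO cells these ratios were 10.3 and 22.9. In libraries primed at the 3′ end the number of reads per transcript does not grow with its length, so CPM was taken as the scale for levels. Divided by the length of the main coding transcript, mean levels were 852, 69.2 and 0.867 CPM per kb in WT and 264, 18.4 and 0.499 CPM per kb in KO, in the same order.

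Nr4a1 supplied nearly all transcripts of the family in both genotypes. Its share of the summed CPM was 89.5% ± 0.98 (SD, n = 3) in WT and 90.7% ± 1.82 (SD, n = 3) in KO. Nr4a2 supplied 10.3% ± 1.03 and 8.87% ± 1.71, and Nr4a3 a mean of 0.202% and 0.384%. Summed over the family, WT cells held 2426 CPM ± 507 and KO cells 743 CPM ± 72.0 (SD, n = 3 each).

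Whether the members were lower by the same factor in KO cells was tested on their ratios within each library. The ratio of Nr4a1 to Nr4a2 was 8.54, 9.83 and 7.88 in WT and 13.5, 9.17 and 9.02 in KO. The groups overlapped, and the log2 ratio differed by -0.25 between WT and KO (SD 0.16 and 0.33, n = 3 each, exact permutation p = 0.4, two-sided, adjusted over the 3 ratios 0.4). A difference between these folds was therefore not shown. The ratio of Nr4a2 to Nr4a3 was 42.2, 40.0 and 87.4 in WT and 26.8, 19.2 and 25.9 in KO, with no overlap and a log2 difference of 1.16 (exact permutation p = 0.1, adjusted 0.3). The ratio of Nr4a1 to Nr4a3 was 360, 394 and 688 in WT and 361, 176 and 234 in KO, overlapping, with a log2 difference of 0.91 (exact permutation p = 0.2, adjusted 0.3). No split of 3 against 3 libraries can give a p below 0.1, and both ratios to Nr4a3 carry its counting error.

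Among single values, the same exact permutation test on log2 CPM gave p = 0.1 for Nr4a1 and for Nr4a2, the smallest possible, and p = 0.2 for Nr4a3 (adjusted over the 3 members 0.15, 0.15 and 0.2). The spread between replicates was widest for Nr4a3 in both genotypes. It includes counting error, which weighs most on Nr4a3, with 22 to 58 counts per library against 6073 to 22833 for Nr4a1. In WT cells the coefficient of variation was 12.3% for Nr4a2, 22.0% for Nr4a1 and 41.2% for Nr4a3. In KO cells it was 10.6% for Nr4a1, 18.0% for Nr4a2 and 36.9% for Nr4a3. All 3 members were highest among WT libraries in replicate 2, whereas among KO libraries Nr4a1 was highest in replicate 1 and Nr4a2 and Nr4a3 in replicate 2.

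**Figure D3:**
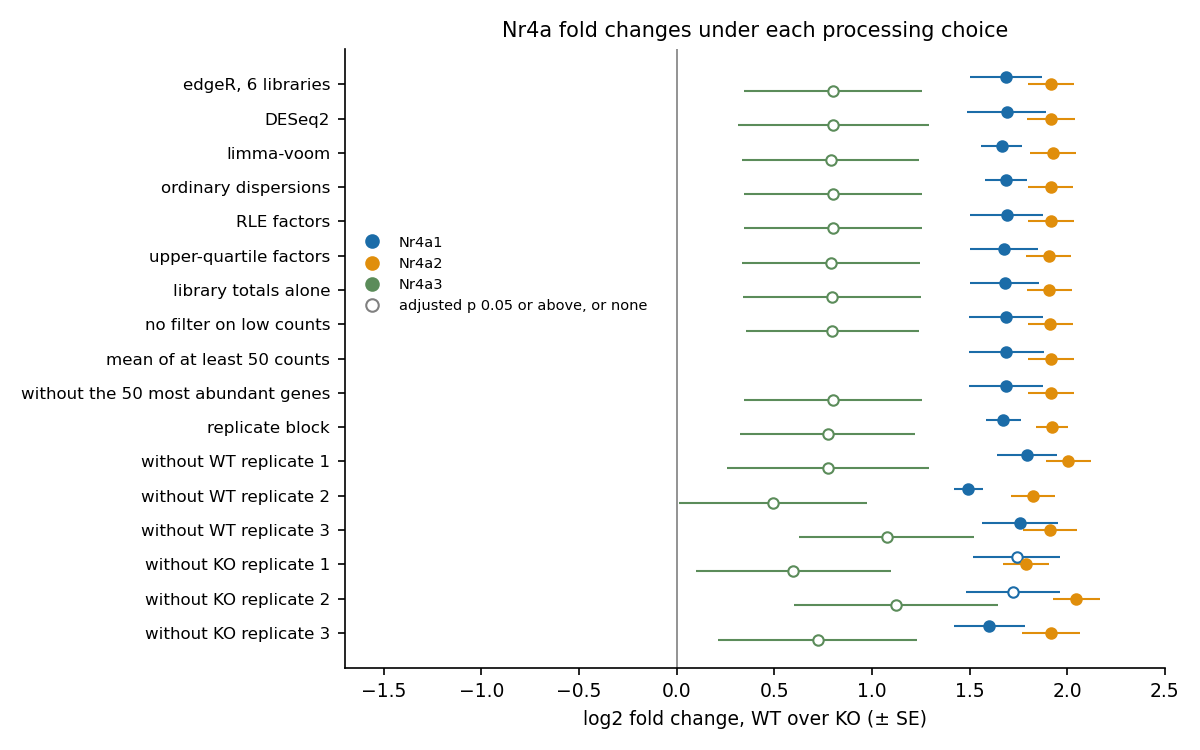
Log2 fold change of WT over KO (x axis) with its SE for Nr4a1, Nr4a2 and Nr4a3 under each processing choice (y axis), filled where the adjusted p was under 0.05 and open where it was not or where none was given. Nr4a2 stays between 1.79 and 2.05, Nr4a1 drops to 1.49 without WT replicate 2, and Nr4a3 ranges from 0.49 to 1.12.

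Over the 6 libraries, log2 CPM of Nr4a1 and Nr4a2 correlated with r = 0.973, and Nr4a3 correlated with r = 0.696 to Nr4a1 and 0.702 to Nr4a2. These are descriptions over 6 points that share the genotype difference. Likeness was measured over 9682 genes whose mean reached 20 counts. The pattern nearest to Nr4a1 was that of Ppp1r15b (r = 0.998), Btg2 (0.996), Tmed5 (0.995), Spty2d1 (0.993) and Tiprl (0.993). For Nr4a2 the nearest were Tob2 (1.000 after rounding), Ppfibp2, Gna13, Eprs and Grasp (0.993 each). For Nr4a3 they were Zfp1 (0.997), Itga9 (0.996), Camsap2 (0.995), Nfatc2ip (0.984) and Cdv3 (0.982). Each list holds the 5 highest r of 9682 genes over 6 libraries, so high values were picked by the search. None of the genes named for Nr4a3 was called (edgeR adjusted p 0.356 to 0.882). With values centred within each genotype, their r stayed at 0.98 or above after rounding. Their likeness to Nr4a3 therefore lay in the spread between replicates, and the part of counting error in it was not tested.

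The rest of the nuclear receptor superfamily was set beside the family. Of 46 other nuclear receptor genes, 22 were in the table and 16 passed the filter. None of the 16 was called in edgeR, nor any of the 9 to which DESeq2 gave an adjusted p. In edgeR 2 had an unadjusted p under 0.05, and their median log2 fold change was 0.03 against -0.0026 over all genes. Over all genes 1.82% were called and 11.9% had an unadjusted p under 0.05, so these counts were near the background. The most abundant was Nr3c1, the glucocorticoid receptor, at 198 ± 26.1 and 175 ± 14.7 CPM in WT and KO (SD, n = 3 each), a log2 fold change of 0.18 with an edgeR adjusted p of 0.465. Its mean was below that of Nr4a2 in WT cells and above it in KO cells. Nr1d2 (REV-ERBβ, a heme-binding repressor of the clock) had a log2 fold change of 0.21 and Rxrb, a retinoid X receptor, -0.24, and neither passed the test.

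**Figure D4:**
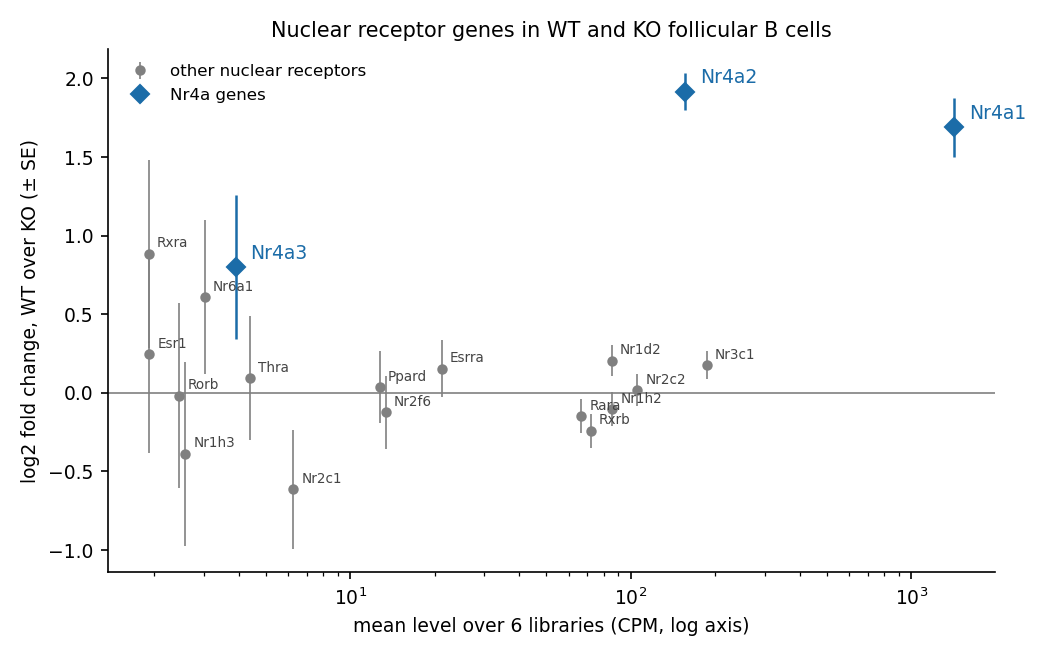
Log2 fold change of WT over KO with its SE (y axis) against mean level in CPM (log x axis) for the 3 Nr4a genes (diamonds) and the 16 other nuclear receptor genes tested (circles). Nr4a1 and Nr4a2 lie at 1.69 and 1.92, while the other receptors run from -0.61 to 0.89 and none was called.

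Genes for proteins that work with NR4A factors were also examined. Of 12 tested partners and coregulators, among them the corepressor Ncor1, the coactivators Ncoa1 to Ncoa3, the acetyltransferases Crebbp and Ep300, and Bcl2, to which NUR77 binds outside the nucleus, 0 were called in edgeR and 2 had an unadjusted p under 0.05, Ncoa1 and Rxrb. The other settings, DESeq2 among them, gave 0 calls too. Both counts were near the shares of 1.82% and 11.9% over all genes. The median log2 fold change was -0.01. Ncoa1 was at 108 and 88.8 CPM in WT and KO (log2 fold change 0.29, edgeR adjusted p = 0.161), and Rxra, the dimer partner, was at 2.48 and 1.34 CPM (0.89, edgeR adjusted p = 0.618).

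The route from cAMP to CREB lies upstream of the family. Of 26 tested genes of this route, 5 (19.2%) were called higher in WT in edgeR, beside 1.3% of all genes. An unadjusted edgeR p under 0.05 was found for 6 (23.1%), these 5 included, beside 11.9% of all genes. DESeq2 called 6 genes of the route, all higher in WT, of the 22 to which it gave an adjusted p. The median log2 fold change was 0.02. The 5 genes called in edgeR are known cAMP or CREB targets or break down cAMP. Crem, which encodes the CREB-related factor CREM and its short repressor ICER, was at 196 ± 23.2 and 73.7 ± 5.71 CPM in WT and KO (SD, n = 3 each, log2 fold change 1.41, edgeR adjusted p = 1.71e-10). Sik1, a kinase that holds CREB coactivators in the cytoplasm, was at 103 CPM ± 13.2 and 37.9 CPM ± 3.20 (1.44, edgeR adjusted p = 3.45e-09). Both folds were smaller than those of Nr4a1 and Nr4a2, and the difference was not tested.

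The other 3 edgeR calls of this route were phosphodiesterases, enzymes that degrade cyclic nucleotides. Pde4b had a log2 fold change of 0.58 (edgeR adjusted p = 3.91e-07), Pde4d 0.69 (0.0315) and Pde3b 0.46 (0.0417). Both Pde4d and Pde3b lost their calls on omission of any library other than WT replicate 2. The signaling components themselves were not called in edgeR. Prkar1a, a regulatory subunit gene of protein kinase A, was the remaining gene with an unadjusted edgeR p under 0.05. It was at 555 ± 11.3 and 488 ± 7.60 CPM in WT and KO (SD, n = 3 each, log2 fold change 0.19, edgeR adjusted p = 0.171). Gnas, encoding Gαs, was at 1055 and 1051 CPM in WT and KO, and Creb1 at 218 and 217 CPM. The catalytic subunit genes Prkaca and Prkacb of protein kinase A had log2 fold changes of 0.10 and 0.09.

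The calcium route, which reaches Nr4a1 through calcineurin, NFAT and MEF2, held 20 tested genes. In edgeR 0 were called, 3 had an unadjusted p under 0.05, and DESeq2 called 0, beside 1.82% called and 11.9% with such a p over all genes, so these counts too were near the background. The median log2 fold change was 0.05 and the highest was 0.37, that of Mef2a (edgeR adjusted p = 0.223). Nfatc3, at 1156 and 995 CPM in WT and KO, had a log2 fold change of 0.22 (edgeR adjusted p = 0.125). These genes and Hdac7, lower in WT at -0.18 (edgeR adjusted p = 0.333), were the 3 with an unadjusted p under 0.05. Mef2c, the abundant MEF2 gene of B cells, was at 1986 and 2036 CPM in WT and KO, and Nfatc1, itself a target of calcium signals, at 526 and 505 CPM. This list is made up mainly of route components, whereas the calls in the cAMP list were targets or phosphodiesterases. Counts from these lists therefore differ in kind, and the activity of either route was not tested.

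Antigen receptor signals raise Nr4a1 together with the Egr genes. Of 9 early genes of antigen receptor signaling, 2 were called, both lower in WT, beside 0.514% of all genes, and the list's median was -0.38 on the log2 scale. The 2 genes were Irf4, a transcription factor of activated B cells (log2 fold change -0.38, edgeR adjusted p = 0.0043), and Cd69, a surface marker of activation (-0.42, edgeR adjusted p = 0.0423). Cd69 lost its call in 4 of the 6 fits that left out a library, and Irf4 in 2, without WT replicate 1 and without KO replicate 3. Egr1 was at 156 ± 62.2 and 204 ± 29.7 CPM in WT and KO (log2 fold change -0.39, edgeR adjusted p = 0.762). Egr2 (-0.63, 0.615) and Egr3 (-0.60, 0.229) did not pass the test either. An unadjusted edgeR p under 0.05 was found for 4 of the 9 genes (44.4%), beside 11.9% of all genes. Besides the 2 called, these were Egr3, lower in WT, and Ccl4, higher in WT.

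Immediate early genes at large were divided. Of 27 tested, 9 were called higher in WT and 3 lower, beside 1.3% and 0.514% of all genes, and the median log2 fold change was 0.25. The largest log2 fold change belonged to Ier5l, at 9.38 and 2.13 CPM in WT and KO (log2 fold change 2.13, edgeR adjusted p = 0.000694). Plk2, a kinase of the Polo-like family, had a log2 fold change of 1.75, and the AP-1 genes Fos, Fosl2 and Junb had 1.68, 1.60 and 1.03. Ier2 (1.12), the phosphatase genes Dusp1 (0.76) and Dusp2 (0.27) and the antiproliferative gene Btg2 (0.65) were the others called higher in WT. Dusp2 was no longer called on omission of KO replicate 1 or KO replicate 2. The 3 genes called lower were Jund (-0.49), Jun (-0.46) and Klf2 (-0.23). Jun lost its call in 4 and Klf2 in 5 of the 6 fits that left out a library. An unadjusted edgeR p under 0.05 was found for 15 of the 27 genes (55.6%), beside 11.9% of all genes. Besides those called, these were Klf4 and Gadd45b, higher in WT, and Egr3, lower in WT.

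**Figure D5:**
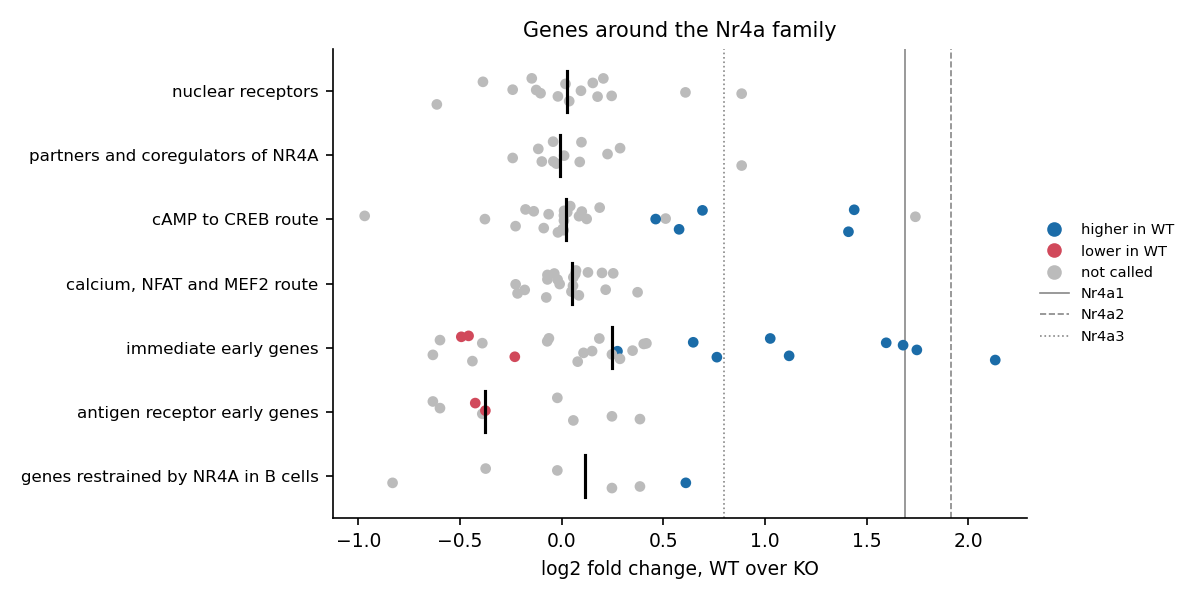
Log2 fold change of WT over KO (x axis) for each tested gene of 7 lists around the Nr4a family (y axis), colored by the edgeR call, with a black bar at the median of each list and vertical lines at Nr4a1 (solid), Nr4a2 (dashed) and Nr4a3 (dotted). Calls higher in WT were made in the cAMP to CREB route (5 of 26), the immediate early genes (9 of 27) and the genes restrained by NR4A (1 of 6), whereas nuclear receptors, coregulators and the calcium route have none. The lists differ in their make-up of targets and components, and route activity was not tested.

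Of 6 genes that earlier work places under restraint by NR4A factors in activated B cells, 1 was called, higher in WT, beside 1.3% of all genes. Cd86, a costimulatory ligand, was at 70.9 ± 6.28 and 46.4 ± 4.52 CPM in WT and KO (SD, n = 3 each, log2 fold change 0.61, edgeR adjusted p = 0.00289), and it differed in the same direction as Nr4a1 and Nr4a2. Cd86 is itself known to be induced by cAMP in B cells, and any part of NR4A factors in its level was not tested. Batf, an AP-1 factor, was at 4.99 ± 0.85 and 8.92 ± 1.59 CPM in WT and KO (log2 fold change -0.83, edgeR adjusted p = 0.209). Icam1, an adhesion molecule, had a log2 fold change of -0.37 (edgeR adjusted p = 0.217), Myc 0.25 (0.897), Ccl4 0.39 (0.354) and Ccl3 -0.02 (0.987). The median of the 6 genes was 0.11. An unadjusted edgeR p under 0.05 was found for 4 of the 6 (66.7%), beside 11.9% of all genes. These were Cd86 and Ccl4, higher in WT, and Batf and Icam1, lower in WT.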

How the data were processed

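RNA was measured in 3 WT and 3 KO libraries of follicular B cells, grouped by title. The authors used a 3′-end kit, aligned 50-base reads to mm10 (STAR) and counted them per gene (HTSeq), and the deposited values are raw counts. Versions, annotation and use of strand in counting were not given in the sources used here. Genes in the table had at least 10 counts in all, and of its sample columns 0 were left unused. The labels do not say whether replicates are separate mice, so p-values measure the spread between these libraries.

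Genes were filtered with filterByExpr in edgeR 4.0.16 (R 4.3.3), libraries were scaled by TMM, and WT was compared with KO by the robust quasi-likelihood F test with Benjamini-Hochberg adjustment over 10514 genes and a threshold of 0.05, which called 191 (1.82%), 137 higher (1.3%) and 54 lower (0.514%). Folds are WT over KO. The SE is the size of the log2 fold change over the root of F. CPM is the count over the TMM-scaled library size. Scripts were tested on simulated data. The members, lists and the rule for named genes (list members that were called or define a role, and the 5 genes most like each member) were chosen with earlier results of these data known. The lists were other nuclear receptors, NR4A partners, the cAMP and calcium routes, immediate early, antigen receptor and NR4A-restrained genes, and markers of follicular B, marginal zone B, T, myeloid, NK, plasma and erythroid cells. Their levels were summed, and the marker symbols Ighd, Ighm, Trac, Ncr1, Hba-a1, Hba-a2 and Hbb-bt had no row under those names. Alternatives were DESeq2 1.42.0, limma-voom (limma 3.58.1), ordinary dispersions, factors by RLE or by upper quartile, library totals without factors, testing every gene or only those averaging 50 counts, leaving out the 50 most abundant genes or each library, and a replicate block.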

Additional observations from a re-analysis of the deposited data

How the results depend on the processing

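Nr4a1 and Nr4a2 were called under all 10 alternatives that kept every library. Nr4a3 was called under none of them, was not tested at a mean of at least 50 counts and had no adjusted p in DESeq2. The 3 members had log2 fold changes of 1.66 to 1.69, 1.91 to 1.93 and 0.77 to 0.80. The differences in log2 ratio between members kept their signs in every setting tried for them. The adjusted p of Nr4a1 ran from 6.86e-14 (DESeq2) to 0.0333 (no filter). Leaving out each library in turn gave log2 fold changes of 1.49 to 1.79 for Nr4a1, whose edgeR call was lost without KO replicate 1 or KO replicate 2 (cause not tested), and called 1 to 2 of the members. Over the same 6 fits, 91 to 183 genes were called in all, 3 to 5 of the cAMP route and 0 to 2 of the antigen receptor list. Deviations of same-numbered libraries correlated at 0.0136 to 0.0498, so the numbers were not taken as pairs, although 6 of 6 libraries correlated best with their own number. With a replicate block 281 genes were called, 1 of the calcium route (Nfatc3, higher in WT) and 4 of the antigen receptor list, all lower in WT. In that fit Nr4a1 had a log2 fold change of 1.67 ± 0.09 (SE, edgeR adjusted p = 3.47e-07), and Nr4a3 was still not called (edgeR adjusted p = 0.498). The fits that left out a library had no block. The few reads of Nr4a3 limit what can be said of it.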
